A study of Mus musculus with 20 samples.

Results

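Akr1c18, Ptgfr, Akr1c14, Srd5a1 and Parm1 were followed through 20 ovary libraries of Ames dwarf stock mice. These are 5 of the 23457 genes in the count tables, chosen by name with their levels in these same libraries already known, so every level and difference of the 5 genes below is a description and carries no test. Ovaries came from females that were either homozygous for the dwarf allele (df/df, called dwarf) or heterozygous (N/df, called normal), taken at 6 or 22 months of age, with 5 libraries in each of the 4 groups and 1 mouse taken as 1 library. Dwarf mice lack pituitary growth hormone, prolactin and thyrotropin throughout life, and the normal controls carry 1 dwarf allele too. The estrous stage at collection is not stated in the labels.

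The corpus luteum forms from the ovulated follicle and secretes progesterone. In rodents it is maintained by prolactin and luteinizing hormone, and prolactin signalling through Prlr and Stat5 is known to hold down Akr1c18 in luteal cells. Akr1c18 encodes the aldo-keto reductase 20alpha-hydroxysteroid dehydrogenase, which converts progesterone to an inactive product and is a classical marker of luteal regression. Ptgfr encodes the receptor for prostaglandin F2alpha, the signal that starts regression in many mammals. Srd5a1 (steroid 5alpha-reductase type 1) and Akr1c14 (3alpha-hydroxysteroid dehydrogenase) act in sequence to make 5alpha-reduced progesterone and androgen metabolites. Parm1 encodes a membrane mucin that in the rat is known from prostate and corpus luteum.

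In mm10, Akr1c18 lies on chromosome 13 from 4132627 to 4150631 (minus strand, 9 exons), and Akr1c14 lies in the same gene cluster from 4059591 to 4090422 (plus strand, 9 exons). Srd5a1 lies farther along chromosome 13, from 69573449 to 69611463 (minus strand, 5 exons). Ptgfr is on chromosome 3 from 151798610 to 151837528 (minus strand, 3 exons), and Parm1 on chromosome 5 from 91517700 to 91623996 (plus strand, 4 exons). No exon of the 5 genes overlapped an exon of another gene in the annotation deposited with the series. Stretches of 50 bases shared with transcripts of other genes made up 16.5% of the Srd5a1 transcript (shared with Gm17108), 5.9% for Akr1c14 (shared with Gm18857), 0.61% for Akr1c18 (shared with Akr1cl), 0.41% for Ptgfr and 0 for Parm1, and reads from such stretches could be split or dropped in counting.

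All 5 genes had an entry among the RefSeq promoter sequences (GRCm38.p6). The 250 bases before the start site are shown for Akr1c18 and Ptgfr, the pair whose levels were most alike among the 5, and for Akr1c14, the neighbour of Akr1c18 in the cluster that was not low in dwarf ovaries. Capitals mark matches to TATAA or to GGGCGG on either strand. The windows are chr13:4150647-4150896 (minus strand) for Akr1c18, chr3:151837529-151837778 (minus strand) for Ptgfr and chr13:4059341-4059590 (plus strand) for Akr1c14.
Akr1c18: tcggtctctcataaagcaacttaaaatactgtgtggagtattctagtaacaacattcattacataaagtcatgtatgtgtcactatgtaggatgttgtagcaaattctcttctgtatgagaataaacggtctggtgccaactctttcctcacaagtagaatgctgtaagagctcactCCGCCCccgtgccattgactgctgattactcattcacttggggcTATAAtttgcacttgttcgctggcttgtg
Ptgfr: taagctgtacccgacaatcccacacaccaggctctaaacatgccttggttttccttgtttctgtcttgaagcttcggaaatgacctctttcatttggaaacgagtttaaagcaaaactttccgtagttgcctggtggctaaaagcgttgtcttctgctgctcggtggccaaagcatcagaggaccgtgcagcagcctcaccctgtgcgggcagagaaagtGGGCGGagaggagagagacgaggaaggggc
Akr1c14: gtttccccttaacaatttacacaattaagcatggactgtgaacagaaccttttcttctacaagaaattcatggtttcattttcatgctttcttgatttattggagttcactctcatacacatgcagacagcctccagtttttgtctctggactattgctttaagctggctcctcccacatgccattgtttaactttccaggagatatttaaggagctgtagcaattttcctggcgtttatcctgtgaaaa

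These promoters differ in their letters. The Akr1c18 window had 1 TATAA, 29 bases before the start site, and 1 GGGCGG on the opposite strand, 73 bases before it, and 41.6% of its bases were G or C. These distances are from the RefSeq start site. The annotation deposited with the series starts Akr1c18 farther downstream, at 4150631. The Ptgfr window had 1 GGGCGG, 30 bases before the start site, with 52.0% G or C. The Akr1c14 window had neither motif and 38.8% G or C, against a median of 52.4% over all 32851 promoters of the same length. TATAA was found in 22.8% and GGGCGG in 32.7% of those promoters, and both were chosen after the sequences had been read. The STAT core TTCNNNGAA (7.02% of promoters), the nuclear receptor half-site AAGGTCA (4.08%), the AP-1 site TGANTCA (6.75%) and the cyclic AMP element TGACGTCA (1.55%) were searched on both strands, and these letters are not in the windows of any of the 5 genes.

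Library depth ranged from 1365640 to 36068284 counts assigned to genes. Levels are given as CPM, counts scaled to that total. Granulosa markers (8 genes, summed levels of 164 to 4239 CPM over all libraries) and oocyte markers (6 genes, 5.02 to 510 CPM) were detected in each group. 3 libraries, all of them normal, stood apart from their group and were left out in a setting named below. Normal 6-month replicate 2 held 6152 CPM of 5 oviduct markers against 23.4 to 115 in the other 4 libraries of its group, and 257 CPM of 8 luteal markers against 11960 to 15040. It was also poor in granulosa markers (164 against 2426 to 4239 CPM) and oocyte markers (5.02 against 234.5 to 419.4 CPM). The lowest depth was that of normal 6-month replicate 3, and normal 22-month replicate 3 held 1082 CPM of 6 macrophage markers against 261 to 611 in the rest of its group. Dwarf 22-month replicate 2 also differed from its group, with 1671 CPM of luteal markers against 4137 to 4556. Its granulosa sum was 955 CPM against 1463 to 1907. It was kept in the setting without the 3 normal libraries. Results are over all libraries unless a setting without some of them is named.

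Akr1c18, the progesterone-inactivating enzyme, was the gene of the 5 with the widest range. In normal ovaries at 6 months it stood at 208, 1.75, 115.7, 392 and 89.4 CPM in replicates 1 to 5. At 22 months the normal ovaries held 586, 24.99, 12.9, 13.1 and 66.2 CPM. In dwarf ovaries it stood at 1.15, 1.13, 0.539, 0.633 and 1.497 CPM at 6 months and at 1.60, 1.38, 2.16, 0.986 and 3.52 CPM at 22 months. Each dwarf library lay below each normal library of the same age, and among normal libraries only 6-month replicate 2, the library low in luteal, granulosa and oocyte markers, came near the dwarf values. The dwarf values rest on 8 to 54 counts per library at 6 months and 11 to 29 at 22 months.

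The mean Akr1c18 level was 161.3 ± 148 CPM in normal and 0.990 ± 0.398 CPM in dwarf ovaries at 6 months (SD, n = 5 each), a 163-fold ratio of means and a log2 difference of -7.29 ± 1.302 (dwarf minus normal, edgeR estimate ± SE). Without normal 6-month replicate 2 that difference was -7.56. At 22 months the means were 140.7 ± 250.1 and 1.93 ± 0.985 CPM, a 73.0-fold ratio and a log2 difference of -6.32 ± 1.27. Normal 22-month replicate 1 carried much of the older normal mean, and without it the log2 difference at 22 months was -4.04. The order of the 4 group means was normal 6 months, normal 22 months, dwarf 22 months and dwarf 6 months. The values of the normal groups overlapped each other, those of the dwarf groups overlapped each other, and only the step from normal 22 months to dwarf 22 months was free of overlap. With age the log2 difference was -0.22 ± 0.97 in normal mice, a value that turned to 0.32 without normal 6-month replicate 4 and to -2.42 without normal 22-month replicate 1, and 0.76 ± 1.20 in dwarf mice.

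Ptgfr, the prostaglandin F2alpha receptor, followed the same outline. Normal ovaries held 123.4, 3.35, 33.7, 136.7 and 135.5 CPM at 6 months and 119.1, 6.87, 35.1, 54.6 and 36.9 CPM at 22 months. Dwarf ovaries held 1.18, 3.27, 0.942, 1.55 and 0.471 CPM at 6 months. At 22 months the dwarf values were 1.33, 6.52, 2.45, 2.24 and 10.2 CPM. At 6 months the groups did not overlap, though the lowest normal library (replicate 2) and the highest dwarf library (replicate 2) lay side by side. At 22 months dwarf replicate 5 reached above normal replicate 2, so the groups overlapped.

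Mean Ptgfr was 86.5 ± 63.2 CPM in normal and 1.48 ± 1.07 CPM in dwarf ovaries at 6 months (SD, n = 5 each). The ratio was 58.4-fold and the log2 difference -5.94 ± 0.95 (-6.22 without normal 6-month replicate 2). At 22 months the means were 50.5 ± 42.0 and 4.55 ± 3.73 CPM, an 11.1-fold ratio with a log2 difference of -3.58 ± 0.86 (-2.96 without normal 22-month replicate 1). The normal mean was lower and the dwarf mean higher at 22 than at 6 months (log2 differences with age of -0.79 ± 0.76 and 1.56 ± 0.85). The difference between those age responses was 2.35 ± 1.14 on the log2 scale, and it has no test here because the gene was chosen on these libraries. Without the 3 libraries that stood apart, the normal libraries at 22 months all lay below those at 6 months, as did 15.9% of all genes tested. In dwarf replicates 1 to 5, oviduct markers summed to 628, 1496, 25.2, 746.5 and 26.2 CPM at 6 months. At 22 months the dwarf sums were 2065, 3513, 3426, 1989 and 2271 CPM. Normal 6-month replicate 2, with an oviduct sum of 6152 CPM, held the lowest Ptgfr level of its group. The part of oviduct tissue in the Ptgfr levels was not tested.

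Srd5a1, which carries out the first step of progesterone reduction at the 5alpha position, was highest in young normal ovaries. Its levels there were 83.0, 5.17, 67.4, 36.0 and 71.9 CPM, and in normal ovaries at 22 months they were 34.7, 20.4, 12.8, 31.0 and 36.2 CPM. Dwarf ovaries ran from 15.4 to 23.9 CPM at 6 months (median 16.6) and from 14.8 to 17.2 CPM at 22 months (median 16.1), a narrow spread beside that of the normal libraries. Means fell into the order normal 6 months (52.7 ± 31.8), normal 22 months (27.0 ± 10.1), dwarf 6 months (18.2 ± 3.51) and dwarf 22 months (16.1 ± 0.862 CPM; SD, n = 5 each), and each neighbouring pair overlapped. Log2 differences between dwarf and normal were -1.57 ± 0.45 at 6 months and -0.82 ± 0.45 at 22 months. Without normal 6-month replicate 2, the dwarf libraries all lay below the normal ones at 6 months, where 4.15% of all genes tested did the same. Without the 3 libraries that stood apart they also did so at 22 months, where the share of all genes was 3.92%.

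Akr1c14, the enzyme of the next step and a cluster neighbour of Akr1c18, ran the other way. Dwarf ovaries held 133.2, 96.9, 118.6, 142.3 and 155 CPM at 6 months and 61.9, 83.4, 66.3, 57.7 and 79.8 CPM at 22 months. Normal ovaries held 47.9, 58.8, 27.1, 61.0 and 146.9 CPM at 6 months and 29.8, 23.7, 26.8, 45.5 and 62.0 CPM at 22 months. Within dwarf mice each older library lay below each young one, while the dwarf and normal libraries overlapped at both ages, at 6 months through normal replicate 5 alone. The dwarf means of 129.2 ± 22.4 and 69.8 ± 11.3 CPM were 1.89 and 1.86 times the normal means of 68.3 ± 45.9 and 37.6 ± 16.0 CPM (6 and 22 months, SD, n = 5 each). The log2 differences were 0.90 ± 0.32 and 0.82 ± 0.32 between genotypes, and -0.90 ± 0.32 and -0.97 ± 0.32 with age in normal and in dwarf mice. Granulosa markers had a like order in dwarf mice, with sums of 2137 to 3515 CPM at 6 months and 955 to 1907 CPM at 22 months, and their part in the Akr1c14 levels was not tested.

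Parm1, the membrane mucin, had the smallest log2 differences between genotypes of the 5 genes. Normal ovaries ranged from 19.0 to 38.7 CPM at 6 months (median 25.99) and from 21.8 to 59.1 CPM at 22 months (median 35.7). Dwarf ovaries ranged from 9.07 to 27.4 CPM at 6 months (median 15.3) and from 17.8 to 45.1 CPM at 22 months (median 27.2). All 4 groups overlapped their neighbours in the order of means. Log2 differences were -0.75 ± 0.32 and -0.38 ± 0.32 between genotypes at 6 and 22 months, and 0.37 ± 0.32 and 0.74 ± 0.32 with age in normal and in dwarf mice. Oviduct markers in dwarf ovaries summed to 25.2 to 1496 CPM at 6 and 1989 to 3513 CPM at 22 months. Their part in the Parm1 levels was not tested.

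**Figure D1:**
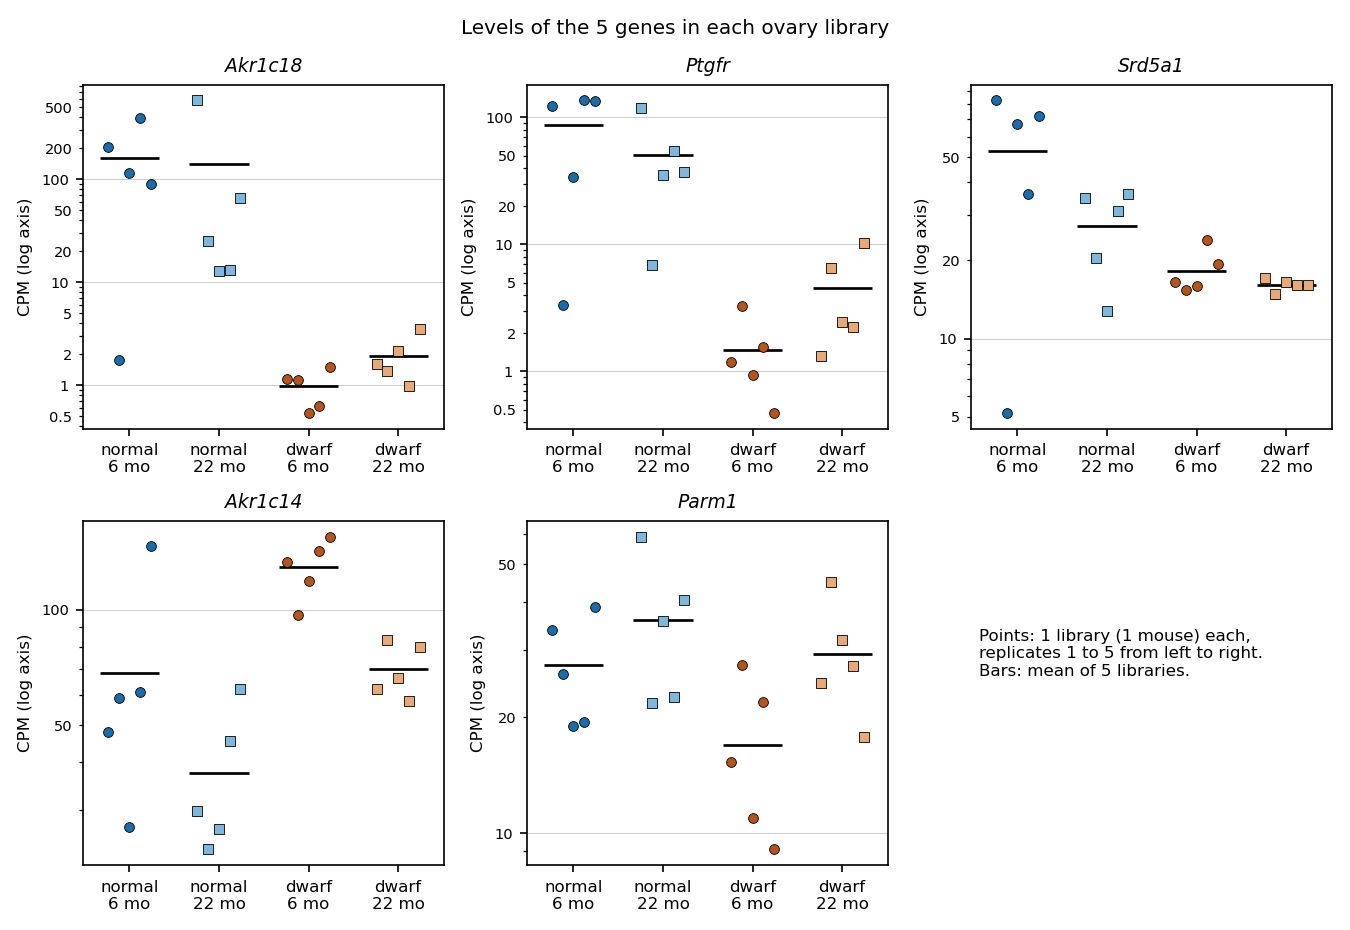
CPM of Akr1c18, Ptgfr, Srd5a1, Akr1c14 and Parm1 in each library (log axis), with 1 point per mouse and a bar at the mean of the 5 libraries of a group. Akr1c18 and Ptgfr sit near 1 CPM in dwarf ovaries at 6 months and mostly above 30 CPM in normal ovaries of that age, while Akr1c14 is highest in dwarf ovaries at 6 months.

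The count of genes with no overlap between groups can be read against all 16099 tested genes. Akr1c18 and Ptgfr were the 2 of the 5 genes lower in every dwarf library at 6 months, where 1.81% of all genes were lower and 4.07% higher without overlap. Akr1c18 was the 1 gene of the 5 lower in every dwarf library at 22 months, against 2.07% lower and 5.16% higher over all genes. Akr1c14 was the 1 gene lower in every older dwarf library, where 12.2% of all genes were lower and 9.85% higher. In normal mice 0 of the 5 genes separated the ages, against 1.01% lower and 1.39% higher. Since these contrasts chose the genes, nothing is read from the counts.

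Per kilobase of exon, Akr1c18 stood above the other 4 genes in normal ovaries, with a mean level of 138 CPM per kb at 6 months against 27.9 for Akr1c14, 19.8 for Srd5a1, 19.6 for Ptgfr and 13.1 for Parm1. In dwarf ovaries at 6 months Akr1c14 came first on this scale, with 52.9 CPM per kb, followed by Parm1 with 8.12, Srd5a1 with 6.85, Akr1c18 with 0.845 and Ptgfr with 0.336. Cyp11a1, the mitochondrial enzyme that starts steroid synthesis from cholesterol, stood at 1410 CPM per kb in normal and 93.1 in dwarf ovaries at 6 months.

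The summed level of 8 luteal markers (Lhcgr, Prlr, Scarb1, Hsd3b1, Cyp11a1, Star, Sfrp4 and Bhmt) was 257 to 15040 CPM in normal ovaries at 6 months and 2770 to 12900 at 22 months. In dwarf ovaries the sum was 2021 to 3711 CPM at 6 and 1671 to 4556 CPM at 22 months. Most of the dwarf sum was Hsd3b1, at 1099 to 2067 and 1272 to 3481 CPM. Of the 8 markers, 0 were absent from any group. The 8 did not share one order, since mean Bhmt was 28.3 and 26.2 CPM in normal and 76.4 and 59.7 CPM in dwarf ovaries at 6 and 22 months, and mean Hsd3b1 was 3229 CPM in normal and 2952 CPM in dwarf ovaries at 22 months. The part of luteal markers in the levels of the 5 genes was not tested. In whole ovary, fewer luteal cells and less RNA per luteal cell cannot be told apart. Akr1c18 is also known from the mouse adrenal cortex. Of 4 adrenal markers, Cyp11b2 and Mc2r were at 0 in all normal libraries of 6 months, Cyp11b2 was also at 0 in all normal 22-month and dwarf 6-month libraries, and the sum, nearly all Cyp21a1 in dwarf mice, was 0.257 to 4.05 CPM in normal and 8.30 to 88.2 CPM in dwarf libraries, where Akr1c18 was low. Oviduct markers were present at 1922 to 3773 CPM in normal and 1989 to 3513 CPM in dwarf ovaries at 22 months, and at 25.2 to 1496 CPM in dwarf ovaries at 6 months.

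Ratios to enzymes of progesterone synthesis gave a second view of the same counts. Per 1000 counts of Cyp11a1, Akr1c18 had 49.7, 71.0, 49.9, 130.1 and 30.1 counts in normal libraries at 6 months and 7.72, 8.14, 1.68, 10.8 and 9.46 in dwarf libraries. Normal replicate 2, which was low in luteal, granulosa and oocyte markers alike and had a CPM near the dwarf values, lay among the other normal libraries in this ratio, and the genotypes did not overlap at 6 months. At 22 months the normal ratios were 155.8, 36.3, 11.1, 3.99 and 63.5 and the dwarf ratios 6.81, 21.3, 9.64, 4.30 and 18.0, which overlapped.

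Against Hsd3b1, which makes progesterone from pregnenolone, the Akr1c18 ratio separated the genotypes at both ages. It was 12.1 to 88.7 counts per 1000 Hsd3b1 counts in normal and 0.260 to 1.05 in dwarf libraries at 6 months, and 2.56 to 122.6 against 0.291 to 1.09 at 22 months. Ptgfr per 1000 Cyp11a1 counts overlapped at both ages, with 14.5 to 136.1 in normal and 2.94 to 26.3 in dwarf libraries at 6 months and 9.99 to 35.4 against 5.67 to 100.3 at 22 months. Per 1000 Hsd3b1 counts Ptgfr ran from 5.14 to 66.3 in normal and from 0.275 to 2.13 in dwarf libraries at 6 months, without overlap, and from 4.87 to 24.9 against 0.383 to 5.13 at 22 months, with overlap. Srd5a1 ran the other way against Cyp11a1, with 11.9 to 29.1 counts per 1000 in the normal 6-month libraries other than replicate 2, 210.1 in that library, and 49.8 to 406.2 in dwarf libraries. Per 1000 Hsd3b1 counts Srd5a1 overlapped at 6 months, with medians of 10.3 in normal and 11.3 in dwarf libraries. Median ratios to Cyp11a1 at 6 months were also higher in dwarf libraries for Akr1c14 (20.2 and 891.9), Parm1 (8.22 and 102.4), Lhcgr (34.8 and 139.8) and Star (286.3 and 1770). For Sfrp4 the median was lower (431.5 and 61.8).

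**Figure D2:**
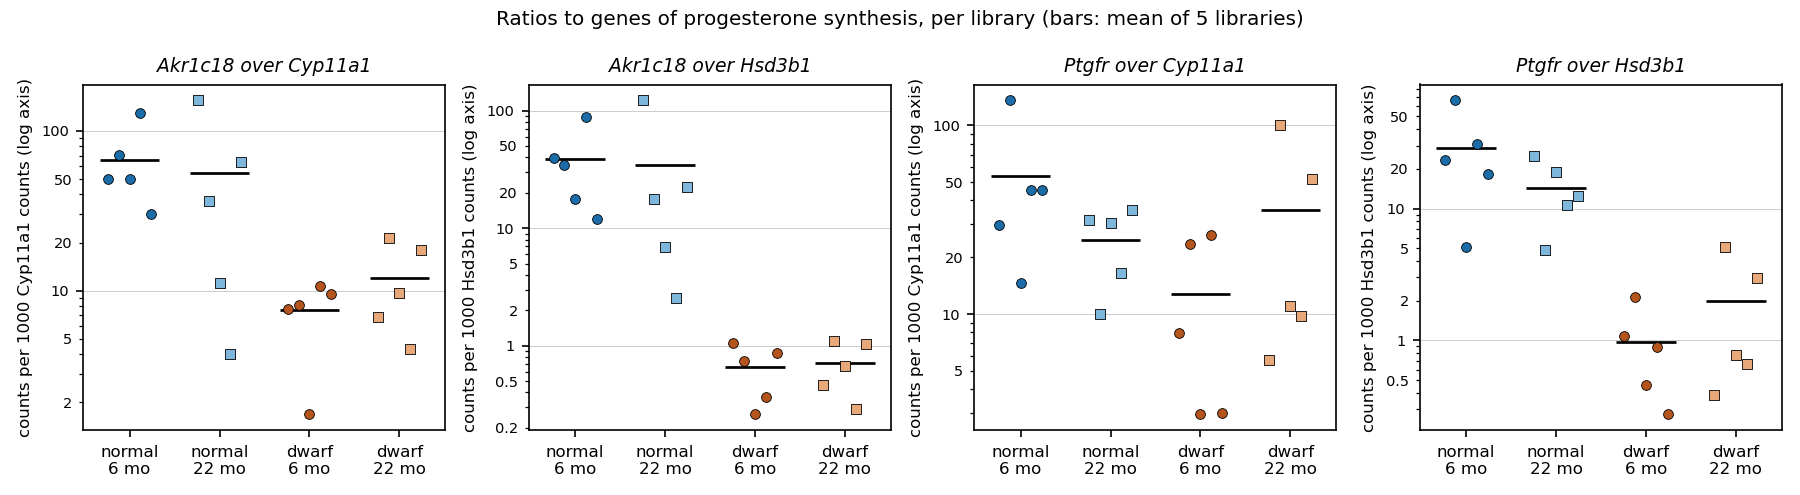
Counts of Akr1c18 and of Ptgfr per 1000 counts of Cyp11a1 or of Hsd3b1 in each library (log axes), with 1 point per mouse and a bar at the group mean. The Akr1c18 ratio to Hsd3b1 is at most 1.09 in the 10 dwarf libraries and at least 2.56 in the 10 normal libraries.

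The genes whose levels ran most like Akr1c18 and Ptgfr were sought among the 16099 tested genes by Spearman's rho of log2 CPM over the 20 libraries. For Akr1c18 they were the Wnt ligand Wnt10b (rho 0.925), the secreted Wnt antagonist Sfrp4 (0.920), the crystallin Crybb1 (0.910), Podnl1 (0.901) and the scaffold protein Homer2 (0.883). For Ptgfr they were Sfrp4 (0.956), Wnt10b (0.932), Fbxl16 (0.895), the lysophospholipid acyltransferase Lpcat2 (0.893) and Epdr1 (0.892). Akr1c18 and Ptgfr had a rho of 0.869 with each other. These values describe likeness over libraries that fall into genotype groups. For Akr1c18 against Ptgfr, rho was 0.685 over the 10 normal and 0.370 over the 10 dwarf libraries.

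Sfrp4 had a rho with Ptgfr of 0.709 over normal and 0.964 over dwarf libraries. Over normal libraries, rho with Ptgfr was higher for Star (0.927), Wnt10b (0.867), Prlr (0.855), Lhcgr (0.806), Cyp11a1 (0.770) and Epdr1 (0.770). Over dwarf libraries these genes ran from -0.430 (Star) to 0.636 (Wnt10b). The mean level of Sfrp4 was 955.6 ± 552 CPM in normal and 10.8 ± 8.38 CPM in dwarf ovaries at 6 months, and 765 ± 728 and 23.1 ± 8.54 CPM at 22 months (SD, n = 5 each). Wnt10b stood at 60.2 ± 54.5 and 0.344 ± 0.133 CPM at 6 months and at 61.7 ± 51.8 and 1.12 ± 0.450 CPM at 22 months in normal and dwarf ovaries. Over the 20 libraries, rho with Akr1c18 was 0.675 for Srd5a1, 0.328 for Parm1 and -0.550 for Akr1c14. Over the normal libraries alone these values were 0.673, 0.079 and 0.164, and over the dwarf libraries 0.152, 0.164 and -0.333. Cyp11a1 had a rho of 0.787 with Akr1c18 and 0.731 with Ptgfr over the 20 libraries. It had 0.697 and 0.770 over the normal libraries, and 0.091 and -0.309 over the dwarf libraries.

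**Figure D3:**
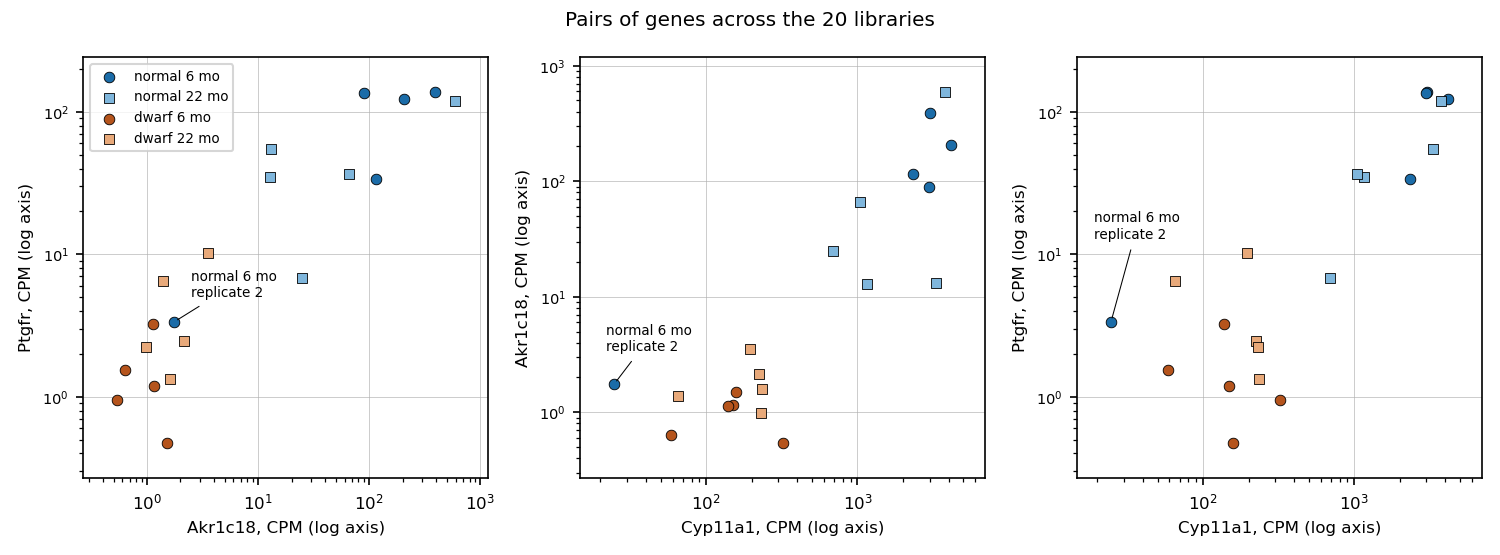
CPM of Ptgfr against Akr1c18, and of each against Cyp11a1, in the 20 libraries (log axes), with color for genotype and age. Normal 6-month replicate 2 lies among the dwarf libraries in the left panel and has the lowest Cyp11a1 level of all, 24.6 CPM.

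Genes around these 5 in the pathway were tested. They were 118 companion genes in 5 lists (other steroid reductases, prostaglandin synthesis and reception, luteal maintenance, progesterone synthesis, and effectors of regression), of which 107 could be tested. At 6 months 2 were higher and 8 lower in dwarf than in normal ovaries (edgeR's quasi-likelihood test, Benjamini-Hochberg adjusted p under 0.05 over 16099 genes), where 2.27% of all genes were higher and 2.3% lower. At 22 months 2 were higher and 7 lower, against 1.96% and 1.86%. Without the 3 libraries that stood apart, the counts were 7 higher and 15 lower of 108 at 6 months, where 6.52% and 5.64% of all genes were called, and 5 higher and 15 lower at 22 months, against 5.37% and 5.40%. The lists were drawn up with earlier results of these data known, so no excess over all genes is read from these counts.

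Prostaglandin genes gave the 2 rises at each age, among 25 tested with a median log2 difference of -0.14 at 6 months and -0.04 at 22 months (-0.04 over all genes at both ages). Without the 3 libraries that stood apart, 5 of 26 rose at 6 months, and 2 rose and 1 fell at 22 months. Of all genes, 6.52% rose at 6 months, and 5.37% rose and 5.4% fell at 22 months in that setting. Ptgds, the lipocalin-type prostaglandin D synthase, stood at 31.3, 36.3, 279, 34.5 and 36.3 CPM in normal ovaries at 6 months and at 3024, 6272, 5333, 1863 and 5682 CPM in dwarf ovaries. At 22 months the values were 38.3, 57.8, 23.5, 49.0 and 41.7 CPM in normal and 1791, 482, 3301, 1779 and 2542 CPM in dwarf ovaries. No dwarf library overlapped a normal one, and the log2 difference was 5.61 ± 0.76 at 6 months (edgeR adjusted p = 0.000524) and 5.48 ± 0.76 at 22 months (edgeR adjusted p = 0.000554).

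Hpgd, the dehydrogenase that inactivates prostaglandins, was higher in dwarf ovaries too. Its mean rose from 13.6 ± 4.28 CPM in normal to 40.7 ± 6.70 CPM in dwarf ovaries at 6 months (log2 1.55 ± 0.25, edgeR adjusted p = 0.00178), and from 6.65 ± 2.56 to 23.4 ± 4.97 CPM at 22 months (log2 1.71 ± 0.26, edgeR adjusted p = 0.000947; SD, n = 5 each). Ptgs2, the inducible cyclooxygenase, stood near the detection limit, with 0.442 ± 0.392 and 1.36 ± 0.777 CPM in normal and 1.13 ± 0.488 and 2.72 ± 1.24 CPM in dwarf ovaries at 6 and 22 months, and did not pass the test in any comparison. Its constitutive counterpart Ptgs1, named after its values were seen, had 16.2 ± 17.7 and 39.8 ± 16.7 CPM in normal and 17.5 ± 8.78 and 39.2 ± 10.2 CPM in dwarf ovaries and did not pass either.

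**Figure D4:**
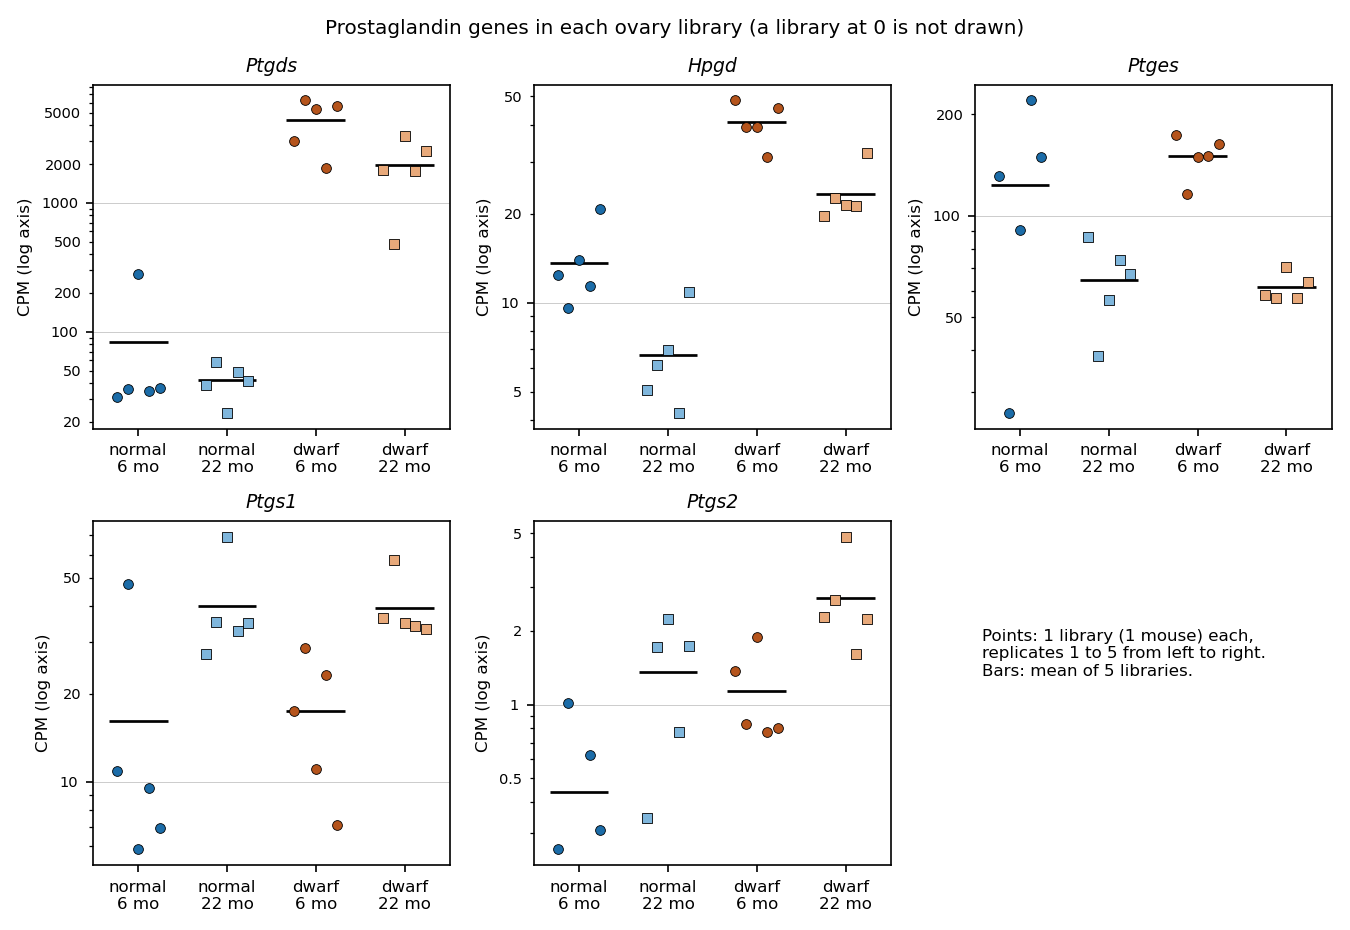
CPM of Ptgds, Hpgd, Ptges, Ptgs1 and Ptgs2 in each library (log axis), with 1 point per mouse and a bar at the group mean. All dwarf values of Ptgds are at least 482 CPM and all normal values at most 279 CPM.

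Luteal maintenance genes, 22 tested, gave 3 falls in dwarf ovaries at each age, with median log2 differences of -0.26 at 6 and -0.45 at 22 months. Without the 3 libraries that stood apart, 8 fell at 6 months, and 5 fell and 1 rose at 22 months. Of all genes, 5.64% and 5.4% fell in that setting. Sfrp4, also the gene most like Ptgfr over the 20 libraries, was lower at 6 months (log2 -6.57 ± 0.92, edgeR adjusted p = 0.000656) and at 22 months (log2 -5.12 ± 0.86, edgeR adjusted p = 0.00265). Cish, a feedback inhibitor that Stat5 induces, had 113.9, 19.9, 56.4, 44.8 and 82.9 CPM in normal and 6.95, 11.6, 7.27, 8.44 and 6.71 CPM in dwarf ovaries at 6 months (log2 -3.00 ± 0.49, edgeR adjusted p = 0.00183). At 22 months its difference was -2.26 ± 0.49 on the log2 scale (edgeR adjusted p = 0.0138). Stat5a, the transcription factor downstream of the prolactin receptor, was lower at 6 months (log2 -0.95 ± 0.27, edgeR adjusted p = 0.049), and Socs3, another feedback inhibitor of cytokine receptors, at 22 months (log2 -0.89 ± 0.19, edgeR adjusted p = 0.0113, lost without dwarf 22-month replicate 1).

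The receptors of the 2 hormones that maintain the corpus luteum did not pass the test over all libraries. Prlr, the prolactin receptor, stood at 305 ± 185 and 203.4 ± 117 CPM in normal and 122.1 ± 33.04 and 156 ± 57.8 CPM in dwarf ovaries at 6 and 22 months (SD, n = 5 each; log2 differences of -1.36 ± 0.60 and -0.46 ± 0.59, edgeR adjusted p = 0.222 and 0.774). Lhcgr, the luteinizing hormone receptor, stood at 120.4 ± 113 and 91.7 ± 46.2 CPM in normal and 19.7 ± 7.43 and 19.5 ± 9.64 CPM in dwarf ovaries (log2 -2.63 ± 0.82 and -2.32 ± 0.82, edgeR adjusted p = 0.0764 and 0.125). Normal 6-month replicate 2 held 11.4 CPM of Prlr and 0.728 CPM of Lhcgr. The other normal libraries of that age held 304.6 to 523.3 CPM of Prlr and 80.6 to 303.6 CPM of Lhcgr. All of these lay above the dwarf libraries (95.5 to 178.7 and 11.0 to 28.5 CPM). At 22 months the genotypes overlapped for both genes.

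Progesterone synthesis genes, 11 tested, included 3 that fell in dwarf ovaries at 6 months and 2 at 22 months, with median log2 differences of -0.82 and -0.69. Without the 3 libraries that stood apart, 5 fell at 6 months and 4 at 22 months, against 5.64% and 5.4% of all genes. Cyp11a1 was at 24.6 to 4179 CPM (median 2969) in normal and 58.8 to 320.6 CPM (median 149.4) in dwarf ovaries at 6 months, with a log2 difference of -3.95 ± 0.83 (edgeR adjusted p = 0.0097), and of -3.46 ± 0.81 at 22 months (edgeR adjusted p = 0.0225). Fdx1, the ferredoxin that carries electrons to Cyp11a1, had differences of -3.50 ± 0.59 (edgeR adjusted p = 0.00242) and -2.07 ± 0.56 (edgeR adjusted p = 0.0459) on the log2 scale. Scarb1, the lipoprotein receptor for cholesterol uptake, was lower at 6 months (log2 -2.21 ± 0.59, edgeR adjusted p = 0.0413). Star, which moves cholesterol into mitochondria, did not pass over all libraries (log2 -1.47 ± 0.58 and -1.34 ± 0.58, edgeR adjusted p = 0.167 and 0.222). Normal 6-month replicate 2 held the 24.6 CPM of Cyp11a1 and 42.9 CPM of Star. The other normal libraries of that age held 640.7 to 1230 CPM of Star, above every dwarf library (110.7 to 567.6 CPM). At 22 months the Star values overlapped. The Scarb1 and Stat5a calls at 6 months, and the Fdx1 and Timp1 calls at 22 months, were lost when any of 8 to 10 single libraries of the 10 compared was left out, and the Cyp11a1 call at 22 months with any of 6.

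Effectors of regression, 37 tested, included 2 falls at each age, with median log2 differences of 0.08 and -0.30. Without the 3 libraries that stood apart, 2 rose and 2 fell at 6 months, against 6.52% and 5.64% of all genes. At 22 months 2 rose and 5 fell in that setting, against 5.37% and 5.4%. Timp1, an inhibitor of matrix metalloproteinases, was lower in dwarf ovaries at 6 months (log2 -2.82 ± 0.64, edgeR adjusted p = 0.0159, lost without dwarf 6-month replicate 1) and at 22 months (log2 -2.31 ± 0.63, edgeR adjusted p = 0.0476). Vegfa, the vascular growth factor, stood at 197.9 ± 66.7 CPM in normal and 86.1 ± 13.6 CPM in dwarf ovaries at 6 months (SD, n = 5 each; log2 -1.23 ± 0.16, edgeR adjusted p = 0.00036). Junb, an AP-1 subunit, was lower at 22 months (log2 -1.35 ± 0.28, edgeR adjusted p = 0.0113).

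**Figure D5:**
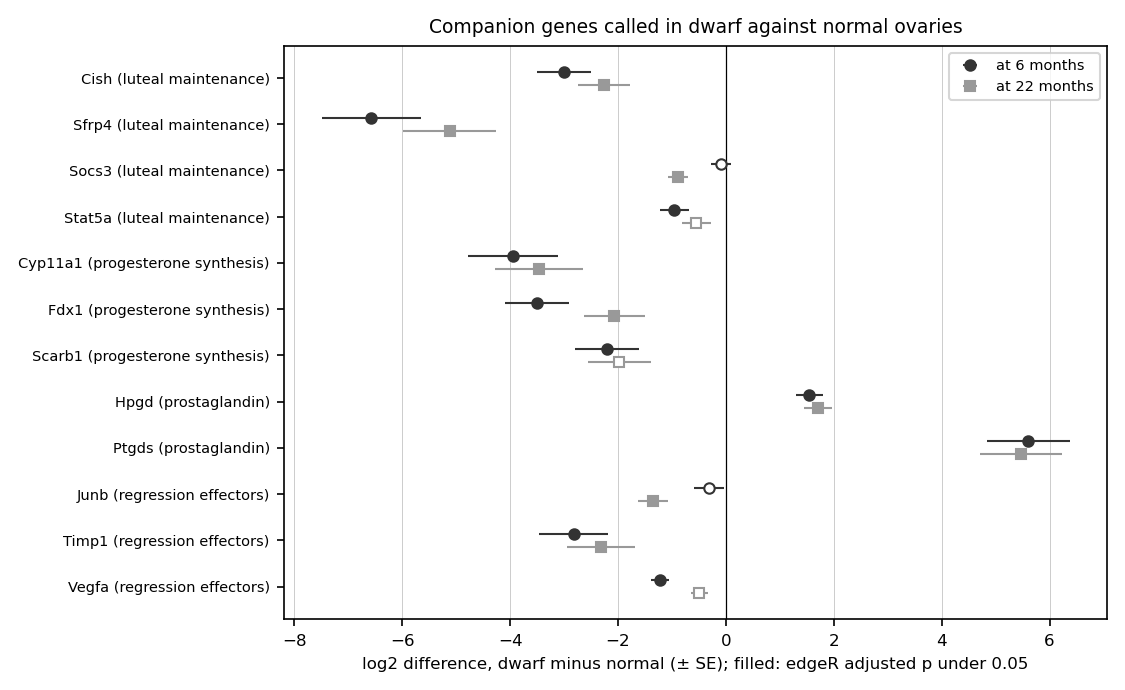
Log2 difference between dwarf and normal ovaries (± SE) at 6 and 22 months for the companion genes named in either comparison, with filled marks for an edgeR adjusted p under 0.05. Ptgds and Hpgd lie to the right of 0 and the other genes to the left at both ages, with Sfrp4 the farthest.

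No other AKR1C gene that could be tested passed the test between genotypes. Akr1cl, on chromosome 1, stood at 1239 ± 693 and 777 ± 291 CPM in normal and 1144 ± 126 and 1112 ± 304 CPM in dwarf ovaries at 6 and 22 months (log2 differences between genotypes of -0.18 ± 0.62 and 0.44 ± 0.62, edgeR adjusted p = 0.923 and 0.799). Akr1c13 and Akr1c19 stood at means of 0.482 to 7.98 CPM, with adjusted p-values from edgeR of 0.664 to 0.994 between genotypes. Akr1c6, Akr1c20 and Akr1c21 did not exceed 0.297 CPM in any library. Akr1c12, of which 28.6% of the 50-base stretches also occur in Akr1c13, rose with age in dwarf mice from 0.158 ± 0.110 to 1.47 ± 0.789 CPM (SD, n = 5 each; log2 3.07 ± 0.87, edgeR adjusted p = 0.0286), on 0 to 7 and 2 to 26 counts per library, and the call was lost without any 1 of 6 libraries. Oviduct markers summed to 25.2 to 1496 CPM at 6 and 1989 to 3513 CPM at 22 months, and their part was not tested.

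With age, 5 companion genes rose and 5 fell in normal mice, against 2.6% and 4.14% of all genes. In dwarf mice 2 rose and 8 fell, against 2.92% and 8.27%. Without the 3 libraries that stood apart, 18 of 108 rose and 16 fell in normal mice, against 16.7% and 12.9% of all genes, and 14 rose and 17 fell in dwarf mice, against 13.3% and 15.4%. Since the lists were drawn up with earlier results of these data known, nothing is read from these counts. The level of Foxo1, which encodes a forkhead factor abundant in granulosa cells, fell by 1.55 ± 0.29 on the log2 scale in normal mice (means of 347 ± 169 and 120.7 ± 24.5 CPM, edgeR adjusted p = 0.00814) and by 1.40 ± 0.29 in dwarf mice (526 ± 125 and 212 ± 22.8 CPM, edgeR adjusted p = 0.0059). Esr2, which encodes their estrogen receptor beta, fell by 2.39 ± 0.64 in normal mice (86.3 ± 74.1 and 16.5 ± 6.01 CPM, edgeR adjusted p = 0.0306) and by 2.04 ± 0.62 in dwarf mice (167 ± 41.8 and 43.1 ± 10.6 CPM, edgeR adjusted p = 0.0417; SD, n = 5 in each group). Granulosa markers summed to 164 to 4239 CPM at 6 and 349 to 1522 CPM at 22 months in normal mice, and their part in these falls was not tested. The calls of Foxo1 and Esr2 in normal mice were lost with only the groups compared.

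Hpgd fell with age as well, by 1.05 ± 0.26 on the log2 scale in normal mice (edgeR adjusted p = 0.0209) and by 0.89 ± 0.25 in dwarf mice (edgeR adjusted p = 0.0273). The Hpgd call in normal mice was lost with only the groups compared. Ptges, a prostaglandin E synthase, fell in dwarf mice from 151 ± 21.7 to 61.4 ± 5.90 CPM (SD, n = 5 each; log2 -1.38 ± 0.34, edgeR adjusted p = 0.0147), while the prostaglandin reductase Ptgr2 rose (log2 0.44 ± 0.14, edgeR adjusted p = 0.0499). In dwarf mice the matrix protein gene Thbs1 (log2 -1.55 ± 0.43, edgeR adjusted p = 0.0258) and the AP-1 gene Fos (log2 -1.19 ± 0.34, edgeR adjusted p = 0.0284) fell.

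In normal mice the cytokine gene Tnf rose (log2 2.58 ± 0.70, edgeR adjusted p = 0.0329), as did the kinase gene Jak2 (log2 1.33 ± 0.37, edgeR adjusted p = 0.0359) and Socs3 (log2 0.67 ± 0.19, edgeR adjusted p = 0.0382), and Vegfa fell (log2 -0.60 ± 0.16, edgeR adjusted p = 0.03). The Tnf and Socs3 calls were lost without the 3 libraries that stood apart. Macrophage markers summed to 147 to 275 CPM at 6 and 261 to 1082 CPM at 22 months in normal mice, and their part in the Tnf rise was not tested. The age calls of Esr2, Jak2, Socs3, Tnf, Vegfa, Thbs1, Fos and Ptgr2, and that of Hpgd in dwarf mice, were each lost without any 1 of 5 to 9 single libraries.

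The difference between the age responses of dwarf and normal mice was called for 0 of the 107 companion genes by edgeR, with 9 at an unadjusted p under 0.05 and 0 by DESeq2 and 0 by limma voom. Over all 16099 genes edgeR called 0 (0%), with 1126 at an unadjusted p under 0.05, DESeq2 17 and limma voom 9. The differences of age responses among the 5 genes were 0.98 ± 1.54 for Akr1c18, 2.35 ± 1.14 for Ptgfr, 0.75 ± 0.63 for Srd5a1, -0.08 ± 0.45 for Akr1c14 and 0.37 ± 0.45 for Parm1 on the log2 scale.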

How the data were processed

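The authors deposited raw counts of reads per gene, 1 table per library, in the format of HTSeq, and the values are whole numbers. Polyadenylated RNA of frozen ovaries, extracted with Trizol, went into the libraries, per the labels' protocols. Bowtie2, TopHat, TopHat2 2.0.10, HTSeq, DESeq, edgeR and the mm10 genome are named in the submitters' processing notes, without the role of each or the strand used in counting. The 5 summary rows (9.84 to 17.6% of each table) were left out of totals and tests, and 0 columns were unused.

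From the deposited counts, CPM was computed over the gene total. Genes passing filterByExpr (minimum count 10, minimum total 15; 16099 genes, the 5 described among them) were fitted over all 20 libraries with TMM factors (0.819 to 1.07) and 4 group means in edgeR 4.0.16 (R 4.3.3, common dispersion 0.165). The SE of a log2 difference is its size over the square root of F. DESeq2 1.42.0 and limma 3.58.1 were alternatives, and the edgeR step was tested on simulated data. Precision at low levels is set by the counts, and counting error is only part of the spread between mice.

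The 5 genes, the companion lists and the tests were chosen with earlier results of these data known. Named companions are up to 3 called genes with the smallest p per list and pairwise comparison, the other AKR1C genes, Prlr, Lhcgr, Ptgs2, Star and Cyp11a1. Nearest genes are the 5 with the highest rho. Hsd17b8 was listed but not analysed here. Nothing states whether libraries came from separate litters or days.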

Additional observations from a re-analysis of the deposited data

Results flagged for a closer look

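Each of the 5 genes was checked in each of the 4 groups, 20 groups of 5 libraries in all, for a library far from the rest of its group. The rule was a gap to the next library above 0.71 of the range of the group. Chance gives about 1 in 20 if values are normally distributed, and CPM was not checked for that. The 2 cases below had gaps of 0.907 and 0.717. Akr1c18 in normal 22-month replicate 1 stood at 586.4 CPM, while the other 4 libraries of that group held 12.9 to 66.2 CPM. Akr1c14 in normal 6-month replicate 5 stood at 146.9 CPM, while the others held 27.1 to 61.0 CPM.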

How the results depend on the processing

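In 399 of 400 cases the log2 differences of the 5 genes moved by less than the spread between replicates. The exception was Akr1c18 at 22 months without normal replicate 1, at -4.04 (leaving out single libraries gave -6.60 to -4.04 there). The limit is wide, since leaving out 1 of 5 libraries can seldom move a mean that far, so the count says little about stability. It passed the Akr1c18 age difference in normal mice, which moved from -0.22 to -2.42 without normal 22-month replicate 1. Of 34 named tests of companion genes, 13 kept their call under every alternative and 21 lost it under some, 0 with a reversed direction. The number of companion genes called was 10, 10, 10 and 9 for age in normal mice, age in dwarf mice, genotype at 6 and genotype at 22 months. Over all genes the counts were 1086, 1802, 735 and 614. The companion counts were 19, 19, 15 and 20 with DESeq2 (1766, 2747, 1414 and 1201 over all genes), 29, 48, 23 and 32 with limma voom (3859, 7519, 1860 and 2291 over all genes), 0, 39, 6 and 21 with only the groups compared, 34, 31, 22 and 20 without the 3 libraries that stood apart (1 for the difference of age responses), and 6, 3, 9 and 6 with dwarf 22-month replicates 1 and 4 summed. Leaving out single libraries gave 2 to 38, 2 to 10, 7 to 19 and 5 to 10. The highest counts, 38 and 19, came without normal 6-month replicate 2. For age in normal mice the counts were 3 and 2 without normal 6-month replicates 1 and 4, and 5 and 3 without normal 22-month replicates 2 and 3. For age in dwarf mice they were 2 to 6 without any dwarf library except 6-month replicate 2, and for genotype at 22 months 5 without dwarf 22-month replicate 1. The cause of these shifts was not tested. With only the groups compared, the age calls in normal mice were all lost, those of Foxo1 and Hpgd included. Nothing is read from the counts of settings that have no count over all genes beside them.

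With the replicate number as a block the counts were 10, 12, 9 and 8. The labels tie the numbers to no litter, batch or day, and the deviations of same-numbered libraries correlated at -0.277 to 0.782, with 13 of 30 pairs over 0.1. The closest pair of libraries within a group was dwarf 22-month replicates 1 and 4 (chi-square per degree of freedom 2.42, next 11.7), which still differed beyond sampling noise and stayed separate. Depth limits the dwarf values of Akr1c18 and Ptgfr, which rest on as few as 8 and 10 counts.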
